A study of Drosophila melanogaster with 12 samples.

Results

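The genes described are 7 transcription factors that set or maintain neuroblast identity: btd, Sp1, tll and pnt, which are tied to the type II lineage, and dpn, klu and SoxN, which act in neuroblasts more widely. They were chosen by symbol and role, with no threshold on their values but with earlier results of these data known. They are 7 of the 15340 genes in the deposited count table. All 7 were measured in all 12 libraries and passed the filter on low counts, as did 7978 genes in all.

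The study profiled type II neuroblasts from the brains of Drosophila melanogaster larvae of 4 ages (24, 36, 50 and 84 h after hatching), with 3 libraries per age. Per the labels, larvae were kept at 25 °C, 30 brains were dissected, and GFP-labelled cells were picked by a robotic sorter and pooled, 93 to 132 per library, and their RNA was amplified. The sources used here give neither the strain nor the driver that made the cells fluoresce. Whether the 3 libraries of an age had separate dissections is not stated, so p-values reflect library-to-library spread, part of which may be technical.

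A type II neuroblast divides asymmetrically to renew itself and to bud off an intermediate neural progenitor, which divides several more times before making neurons and glia. Type I neuroblasts, the more common kind in the central brain, lack this transit-amplifying step and express the proneural factor Asense, which type II neuroblasts keep off. In the type II lineage the ETS factor Pointed, the zinc-finger factor Buttonhead and the orphan nuclear receptor Tailless hold that identity, while Notch signalling acts through Deadpan, Klumpfuss and the E(spl) repressors to hold the stem cell state itself.

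The libraries held 4512102 to 8391731 gene counts and 6930 to 73316 counts of ERCC spike-in RNA, and 8953 to 10797 genes had a count. Levels are given in CPM, counts per 1000000 gene counts after TMM scaling (trimmed mean of M values). A CPM is thus relative to other genes and not an amount per cell. The TMM factors were 0.799 to 0.959 at 24 h and 1.03 to 1.25 at 84 h. CPM therefore differs from the unscaled share of gene counts, taken over the 3 libraries of an age. From 24 to 84 h that share went from 0.0439 to 0.0458% for pnt, 0.0181 to 0.0210% for dpn and 0.00771 to 0.0103% for btd. It went from 0.0711 to 0.0697% for klu, 0.0652 to 0.0375% for SoxN, 0.0319 to 0.0176% for tll and 0.0103 to 0.00781% for Sp1. A count of 3, the limit that a count of 0 allows, was worth 0.447 to 0.666 CPM. The lowest count of any of the 7 genes in any library was 305, so none of the results on these 7 rests on the edge of detection. Some markers and list genes named below were near that limit. Counts of amplified RNA are not independent molecules, and such limits cover counting error only. In pooled cells a gene's level falls alike when fewer cells of a type are present and when each cell holds less of its RNA, and the libraries cannot tell these apart.

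Markers were checked against the label. The type II list of 7 genes (pnt, btd, Sp1, tll, dpn, mira and klu) was detected in full at every age. Its summed level was 2065 to 3355 CPM over the 12 libraries. Only mira of this list is not among the factors described here, so detecting the list is not a separate check of the label. ase, which marks type I neuroblasts, was at 2.25 to 10.4 CPM, and the edgeR test described next gave it an adjusted p of 0.427 over the 4 ages. erm, which marks maturing intermediate progenitors, ran from 0 to 3.13 CPM.

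Markers of other cells were also detected. The 9 intermediate progenitor genes summed to 714 to 1253 CPM, most of it grh, which neuroblasts express too. Neuronal markers, 9 of 10 in the table, summed to 351 to 517 CPM, and 7 of 8 optic lobe neuroepithelium genes to 509 to 919 CPM. The 10 glial markers summed to 431 to 576 CPM in the 24 h libraries, 565 to 689 in those of 36 h, 520 to 593 in those of 50 h and 428 to 487 in those of 84 h. The defining glial factor repo was at 0 to 5.52 CPM. Haemocyte and fat body genes (7 of 9 in the table) summed to 31.4 to 68.8 CPM and the 7 muscle genes to 33.6 to 74.4 CPM. Single markers within these sums differed between ages by the edgeR test described next, and the ones named here were chosen after their values were seen. That test passed 2 of 6 glial, 5 of 8 neuronal, 4 of 6 progenitor and 2 of 6 optic lobe markers tested. It passed 0 of 3 haemocyte or fat body and 0 of 3 muscle markers, and 19.5% of all genes tested.

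Markers with their lowest mean at 84 h came from several of the lists. All of the factors but klu also had their lowest mean there, btd by a small margin. The glutamate transporter gene Eaat1 was at 162.5 ± 34.3, 255.1 ± 32.5, 207.6 ± 15.7 and 93.6 ± 3.03 CPM at the 4 ages in turn (adjusted p = 1.4e-05). The neuronal fne was at 170.9 ± 31.4, 166.2 ± 42.6, 138.4 ± 7.24 and 95.2 ± 4.03 CPM (0.00698), and the optic lobe gene hth at 362.7 ± 67.5, 446.6 ± 80.1, 321.3 ± 48.5 and 196.4 ± 36.2 CPM (0.000517). Other markers of the same lists had their highest mean at 84 h, among them the glial loco, with means of 47.4, 36.9, 29.6 and 56.5 CPM (0.0314, a call lost when any of 5 libraries was left out), and the neuronal elav, with 220.4, 187.2, 210.2 and 310.4 CPM (0.0196, and up to 0.140 without the second or the third library at 84 h). At 50 h, where dpn had its highest mean, the neuronal nerfin-1 was at 24.3 ± 4.87 CPM against means of 0.893 to 5.53 at the other ages (adjusted p = 9.8e-05). brp, with 13.0 ± 10.7 CPM there (0.0123), and pros, with 92.1 ± 31.4 CPM (0.0135), also had their highest mean at 50 h, and both lost the call without the first library at 50 h. The part of these cells in the results on the factors was not tested.

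Of the 7 factors, 5 differed between ages when all 12 libraries were fitted together with edgeR's quasi-likelihood test and Benjamini-Hochberg adjustment over all genes. They were tll (adjusted p = 0.000249), SoxN (0.000254), Sp1 (0.00436), pnt (0.00578) and klu (0.0164). Among all genes tested 19.5% passed the same test. dpn did not pass (adjusted p = 0.115), and btd had the highest adjusted p of the 7 (0.936). Every call between a pair of ages was of a factor with a lower CPM at the later age. Against 24 h, SoxN was lower at all 3 later ages and klu at 50 h. Sp1 and tll were lower at 84 h than at each earlier age, and pnt was lower at 84 h than at 36 h only. Spike-in scaling turns the direction of each call from 24 h to 50 or 84 h, as set out for each gene. With it no pair of ages gave a call of a lower factor. It called btd, Sp1, tll, pnt and dpn higher at 50 h against 24 h, where 65.5% of all genes were called higher. The test over all ages then passed 2 of the 7, pnt (adjusted p = 0.0243) and dpn (0.0200), where 34.8% of all genes passed. It was lost for Sp1 (0.0508), tll (0.102), klu (0.277) and SoxN (0.374).

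**Figure D1:**
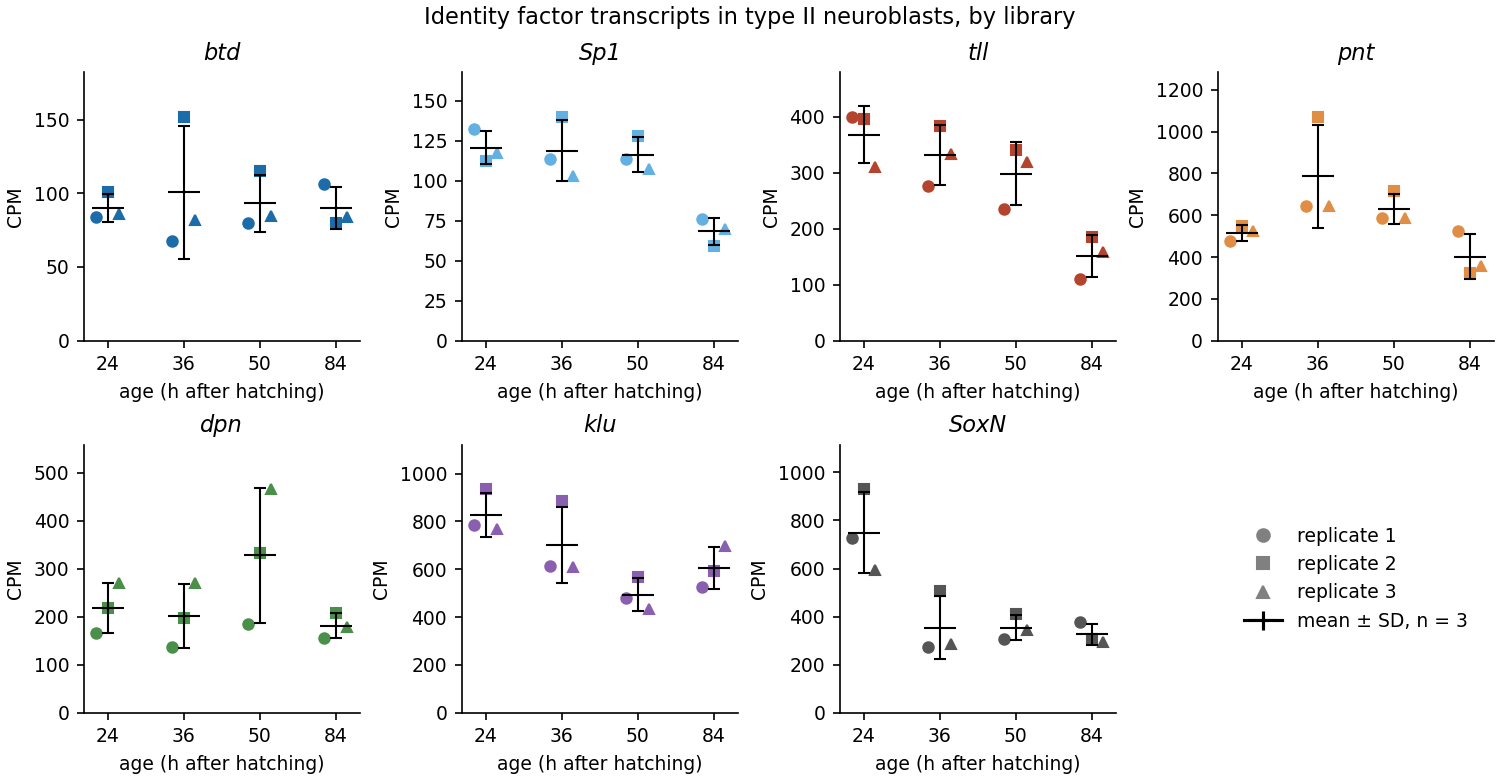
Level of each factor in CPM (y axis, from 0) against age in h after hatching (x axis), with 1 symbol per library and the mean ± SD of 3 libraries as bars. SoxN is separated at 24 h and tll and Sp1 at 84 h, while the ages overlap for btd and dpn. CPM is relative to other genes after TMM scaling. Spike-in scaling turns the changes from 24 h to 50 and 84 h of those that are lower here.

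buttonhead (btd, FBgn0000233) and Sp1 (FBgn0020378), a pair of Sp-family zinc-finger genes, lie near each other on chromosome X in the BDGP6 annotation, on the same strand, with 1 annotated gene between them. btd is needed for type II neuroblasts to make intermediate progenitors, and Sp1 is its close relative.

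btd stood at 83.7, 101.1 and 85.6 CPM at 24 h and at 67.8, 151.8 and 82.1 CPM at 36 h. It stood at 79.6, 114.8 and 84.7 CPM at 50 h and at 106.0, 80.1 and 83.8 CPM at 84 h. All 4 ages overlapped, and the second library was the highest at 24, 36 and 50 h. The means were 90.1 ± 9.52, 100.5 ± 44.9, 93.0 ± 19.0 and 90.0 ± 14.0 CPM (SD, n = 3 each). The log2 change in CPM from 24 to 84 h had a 95% interval of -0.56 to 0.55. On that scale this leaves room for a shift of that size in either direction. Spike-in scaling gave 1.42 for the same span (adjusted p = 0.0696), outside this interval. From 24 to 50 h it gave 1.92 and called btd higher (adjusted p = 0.00993). The median gene moved by 1.48 and 1.98 over these 2 spans under spike-in scaling.

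Sp1 stood at 132.3, 112.4 and 117.4 CPM at 24 h, at 113.5, 139.8 and 102.9 CPM at 36 h and at 113.6, 128.2 and 107.2 CPM at 50 h. At 84 h it stood at 75.9, 59.3 and 69.5 CPM. The first 3 ages overlapped, and the 3 libraries at 84 h lay below all 9 earlier ones. Sp1 was lower in CPM at 84 h than at 24 h. The log2 value was -0.82 ± 0.18 (SE, 1.77-fold, adjusted p = 0.00215), whereas scaling by spike-in RNA gave 0.59 (adjusted p = 0.413). Against 36 h the change was -0.80 ± 0.18 (1.74-fold; adjusted p = 0.00456), and spike-in scaling gave -0.23. Against 50 h it was -0.77 ± 0.18 (adjusted p = 0.0176), and spike-in scaling gave -1.29 (adjusted p = 0.956). The call against 50 h was lost without the second library at 50 h (adjusted p = 0.118), without the second at 84 h (0.145) and without the third at 84 h (0.0784). Without the second library at 84 h the test over all ages gave an adjusted p of 0.0581.

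The ratio of btd to Sp1 within a library does not depend on how libraries are scaled. Its log2 value was -0.66, -0.15 and -0.45 at 24 h, -0.74, 0.12 and -0.33 at 36 h, and -0.51, -0.16 and -0.34 at 50 h. At 84 h it was 0.48, 0.43 and 0.27. The 3 ratios at 84 h lay above the 9 others. In TPM, which takes length into account, btd was at 1.08 ± 0.197 times the level of Sp1 at 24 h, and at 1.19 ± 0.368, 1.15 ± 0.143 and 1.91 ± 0.149 times at the 3 later ages (SD, n = 3). An exact permutation test of the ratio over the 4 ages, with 369600 arrangements of the libraries, gave p = 0.0313. Adjusted over the 3 ratios examined it was 0.0801, which misses the threshold of 0.05. Leaving out the first or the second library at 36 h gave exact adjusted values of 0.0376 and 0.0409.

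**Figure D2:**
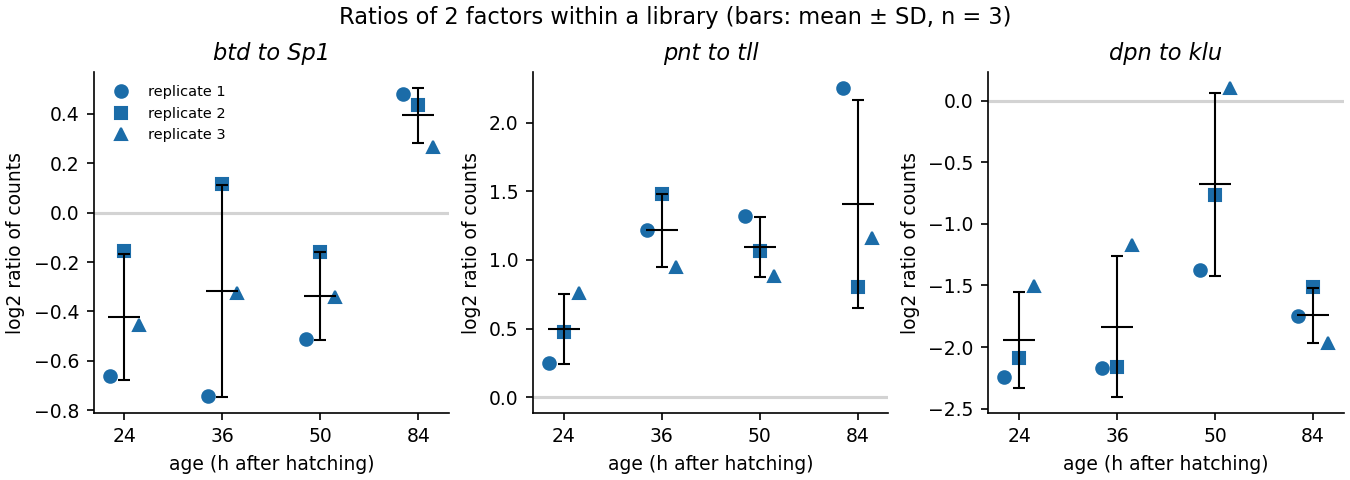
Log2 ratio of counts of 2 factors in the same library (y axis) against age in h after hatching (x axis), with 1 symbol per library and mean ± SD (n = 3) as bars. The btd to Sp1 ratio at 84 h, 0.27 to 0.48, lies above every earlier library, and none of the 3 ratios passed the exact test after adjustment.

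tailless (tll, FBgn0003720) encodes an orphan nuclear receptor that acts mainly as a repressor. It showed the largest fold of any call among the 7 factors. Its level was 399.6, 395.2 and 309.5 CPM at 24 h, 276.3, 383.4 and 333.0 CPM at 36 h, and 235.5, 341.3 and 318.5 CPM at 50 h. At 84 h it was 109.9, 184.8 and 158.8 CPM. The 3 earlier ages overlapped and the 84 h libraries lay below all of them.

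tll was lower in CPM at 84 h than at 24 h. The log2 value was -1.28 ± 0.20 (SE, 2.43-fold, adjusted p = 5.9e-05), whereas spike-in scaling gave 0.37 (adjusted p = 0.607). From 36 to 84 h it was -1.13 ± 0.20 (2.19-fold; adjusted p = 0.000404), and from 50 to 84 h -0.98 ± 0.20 (1.97-fold; adjusted p = 0.00496). Spike-in scaling gave -0.39 and -1.20 for these 2 and called neither. Each tll call in counts held when any one library was left out. Per 1000 spike-in counts tll was at 35.1 to 60.0 at 24 h and at 18.7 to 99.7 at 84 h, so the libraries at 84 h were spread on both sides of those at 24 h.

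pointed (pnt, FBgn0003118) encodes the ETS activator downstream of EGFR and MAPK signalling, and one of its isoforms represses ase in type II neuroblasts. The annotation lists 4 pnt transcripts, which gene counts do not separate, and an overlapping long noncoding RNA on the same strand, so its counts carry that uncertainty. pnt stood at 475.5, 549.1 and 524.0 CPM at 24 h and at 644.6, 1070.5 and 643.6 CPM at 36 h. It stood at 588.9, 715.0 and 589.1 CPM at 50 h and at 524.8, 322.9 and 355.3 CPM at 84 h. The 36 h libraries lay above the 24 h ones and the 50 h libraries above the 84 h ones, with no overlap, and the second library at 36 h was far above its partners.

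pnt was lower in CPM at 84 h than at 36 h. The log2 value was -0.97 ± 0.20 (SE, 1.96-fold, adjusted p = 0.00218), and spike-in scaling gave -0.45 (adjusted p = 0.779). Its 36 h against 24 h value was 0.61 ± 0.20 and did not pass (adjusted p = 0.158). The 84 h against 50 h value of -0.65 ± 0.20 did not pass either (adjusted p = 0.0902). The 84 h against 24 h value was -0.36 (adjusted p = 0.218), with 0.97 under spike-in scaling. The first library at 84 h was the high one of its age, and without it the values against 50 h and 24 h were -0.89 and -0.61 (adjusted p = 0.0121 and 0.0349). Without the second library at 84 h they were -0.52 and -0.23 (adjusted p = 0.388 and 0.561). The 36 h against 24 h value was 0.33 (adjusted p = 0.495) without the second library at 36 h.

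The log2 ratio of pnt to tll had means of 0.49, 1.22, 1.09 and 1.41 at the 4 ages in turn. Its SD at 84 h was 0.755, and the exact permutation test did not pass (p = 0.121, adjusted 0.121).

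Of the factors that act in neuroblasts more widely, deadpan (dpn, FBgn0010109) encodes a Hes-type bHLH repressor that neuroblasts need to keep renewing. In the annotation dpn overlaps 3 noncoding genes, 1 of them on the opposite strand, and none of these is listed in the count table. No source used here states whether counting was by strand, so reads of these genes cannot be told from those of dpn. The 24 h libraries had 165.7, 219.4 and 270.7 CPM of dpn and the 36 h libraries 136.2, 197.3 and 270.2 CPM. The 50 h libraries had 185.1, 333.7 and 465.8 CPM and the 84 h libraries 156.5, 207.9 and 179.1 CPM. The third library was the highest at 24, 36 and 50 h, and every age overlapped with every other.

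dpn gave no call between any pair of ages. Its 50 h against 24 h value was 0.59 (adjusted p = 0.174), that of 50 h against 36 h was 0.70 ± 0.29 (adjusted p = 0.194) and that of 84 h against 50 h was -0.86 ± 0.29 (adjusted p = 0.155). Single libraries at 50 h moved these both ways. Without the first, at 185.1 CPM, the adjusted p was 0.0258, 0.0321 and 0.0117, and that over all ages 0.00656. Without the third, at 465.8 CPM, the values were 0.24, 0.36 and -0.51 (adjusted p = 0.626, 0.609 and 0.554), and the adjusted p over all ages was 0.516. Without the third library at 36 h the value over all ages was 0.0429. Spike-in scaling called dpn over all ages (adjusted p = 0.0200). It also called dpn higher at 50 h against 24 h (log2 value of 2.16, adjusted p = 0.00433). That call was shared by pnt (2.19), btd (1.92), Sp1 (1.88) and tll (1.57). On that scale the median gene moved by 1.98 over the same step and 65.5% of all genes were called higher, so that dpn lay 0.18 above the median gene. DESeq2's test over all ages gave an adjusted p of 0.04997.

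klumpfuss (klu, FBgn0013469) encodes a zinc-finger repressor that acts in neuroblast self-renewal. At 24 h it stood at 783.1, 934.8 and 766.6 CPM. The 36 h libraries had 612.7, 884.0 and 609.0 CPM, the 50 h libraries 480.7, 567.1 and 432.9 CPM and the 84 h libraries 525.3, 594.9 and 698.7 CPM. All 50 h libraries lay below all 24 h libraries. The 36 h libraries overlapped those of 24 h, and the 84 h libraries those of 50 h.

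klu was lower in CPM at 50 h than at 24 h. The log2 value was -0.75 ± 0.17 (SE, 1.68-fold, adjusted p = 0.00492), whereas spike-in scaling gave 1.21 (adjusted p = 0.0700). In TPM the adjusted p of this contrast was 0.0666. The 50 h against 36 h value was -0.51 (adjusted p = 0.107; 0.59 under spike-in scaling), and that of 84 h against 24 h was -0.45 (adjusted p = 0.0720; 1.08 under spike-in scaling). Over all ages klu missed the threshold without the first library at 50 h (adjusted p = 0.0593) or without the third (0.0724). The log2 ratio of dpn to klu had means of -1.94, -1.83, -0.68 and -1.74 at the 4 ages in turn, and the exact permutation test did not pass (p = 0.0534, adjusted 0.0801).

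SoxNeuro (SoxN, FBgn0029123) encodes a group B Sox factor that acts in the formation of the central nervous system. The 24 h libraries had 725.5, 929.9 and 592.8 CPM of SoxN and the 36 h libraries 273.0, 506.3 and 285.0 CPM. The 50 h libraries had 307.5, 410.2 and 345.2 CPM and the 84 h libraries 377.8, 307.1 and 295.3 CPM. Every 24 h library lay above all 9 later ones, and the 3 later ages overlapped, with means of 354.8 ± 131, 354.3 ± 51.9 and 326.7 ± 44.6 CPM (SD, n = 3).

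Of the 7 factors, SoxN alone passed the test between 24 and 36 h, a step at which 0.902% of all genes tested were called and 0.451% were lower. The log2 value was -1.08 ± 0.21 (SE; 2.11-fold; adjusted p = 0.0106), and spike-in scaling gave -0.18 (adjusted p = 0.832). This call was lost without the second library at 24 h (adjusted p = 0.0709), without the first at 36 h (0.0813), without the third at 36 h (0.109), in TPM (0.0828) and in a fit with cell number as a covariate (0.577). The 24 h libraries were made from 93 to 101 cells and the 36 h libraries from 105 to 132, so that cell number and these 2 ages cannot be told apart. From 24 to 50 h SoxN was lower by -1.08 ± 0.21 (2.12-fold; adjusted p = 0.00131), and spike-in scaling gave 0.87. From 24 to 84 h it was lower by -1.20 ± 0.21 (2.29-fold; adjusted p = 0.000354), and spike-in scaling gave 0.30. These 2 calls held when any one library was left out.

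Set side by side, each pair of ages called from 0 to 3 of the 7 factors. The step from 24 to 36 h called SoxN. The step from 36 to 50 h called 0 of 7 with edgeR and 0 with DESeq2, where 4.25% of all genes were called and 2.37% were lower. An unadjusted edgeR p below 0.05 was found for 2 of the 7, klu (lower) and dpn (higher), and for 1387 of all 7978 genes tested. The step from 50 to 84 h called Sp1 and tll, where 3.06% of all genes were called and 1.89% were lower.

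Over longer spans, 24 to 50 h called klu and SoxN (2 of 7, against 16.4% of all genes tested and 9.2% lower), 36 to 84 h called Sp1, tll and pnt (3 of 7, against 9.6% and 5.36% lower) and 24 to 84 h called Sp1, tll and SoxN (3 of 7, against 18.9% and 10.7% lower). All were lower at the later age in CPM. The median log2 change of the 7 factors from 24 to 84 h was -0.45, beside 0.01 for all genes tested, and from 50 to 84 h it was -0.65 beside -0.01. These comparisons share their libraries with one another.

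**Figure D3:**
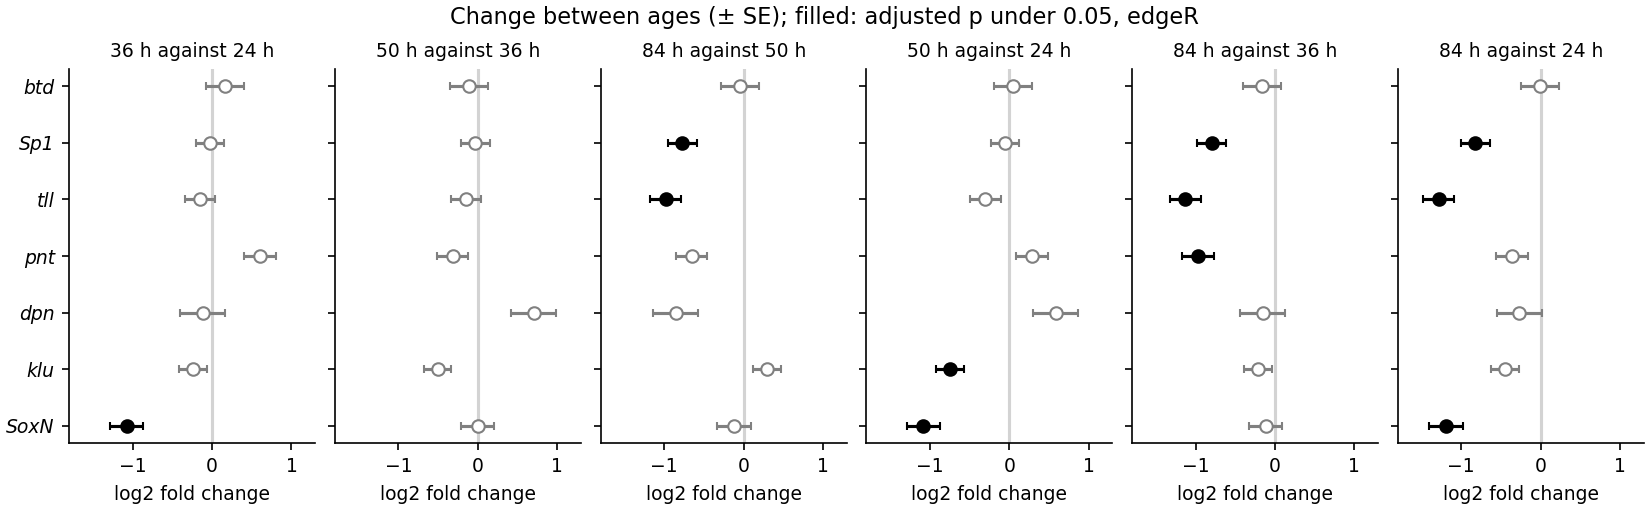
Log2 fold change in counts (x axis, later age against earlier, bars ± SE) of each factor (y axis) in the 6 pairs of ages, with filled points for those past an adjusted p of 0.05 in edgeR. All 11 filled points lie on the lower side, those of Sp1, tll and pnt all in pairs that include 84 h and those of SoxN and klu in pairs that include 24 h; under spike-in scaling none of the 11 is called, and the 5 from 24 h to 50 or 84 h turn positive.

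Spike-in RNA gives another view of the same counts. Per the labels each library received the same amount of one ERCC mix. Gene counts per ERCC count were 105.5 to 202.0 in the 24 h libraries, 223.5 to 252.5 in those of 36 h, 252.6 to 831.9 in those of 50 h and 166.0 to 431.5 in those of 84 h, so that this scale varied within an age by up to several fold. On it, the median log2 change of all genes was 0.86 from 24 to 36 h, 1.98 from 24 to 50 h and 1.48 from 24 to 84 h.

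Relative to the median gene and under spike-in scaling, the 24 to 84 h values were -1.17 for SoxN, -1.11 for tll and -0.88 for Sp1. They were -0.50 for pnt, -0.40 for klu, -0.29 for dpn and -0.06 for btd. With TMM scaling the corresponding values were -1.21, -1.30, -0.84, -0.38, -0.46, -0.28 and -0.02. SoxN, tll and Sp1 were the lowest 3 and btd the nearest to 0 on both scales, while the sign of the change itself depended on the scale.

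**Figure D4:**
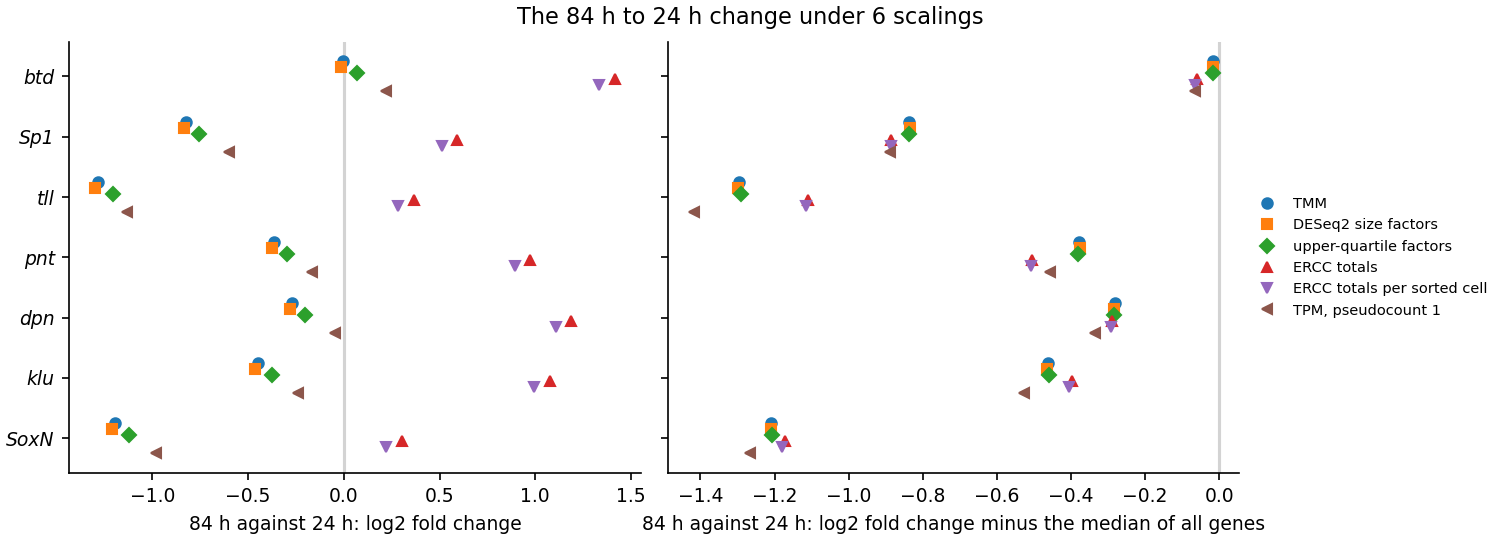
The 24 to 84 h log2 fold change of each factor (y axis) under 6 scalings (symbols), as such (left x axis) and minus the median of all genes (right x axis). On the left both spike-in scalings place every factor above 0 and the TMM values of SoxN, tll and Sp1, the 3 that were called, lie furthest below it; on the right the scalings lie close together for each factor, from near 0 for btd to between -1.42 and -1.11 for tll.

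Levels of different genes were compared in the deposited TPM, which divides by length. At 24 h klu (435.5 ± 59.3 TPM), tll (435.2 ± 45.0) and SoxN (434.9 ± 100) stood together at the top, followed by dpn (248.1 ± 74.7) and pnt (197.2 ± 27.2), then btd (71.6 ± 10.3) and Sp1 (66.7 ± 3.12; SD, n = 3 throughout). Among neighbours in this order, SoxN was apart from dpn and pnt from btd, with no overlap between their libraries. The other neighbours overlapped, although dpn was above pnt within each of the 3 libraries. At 36 h the order was tll (425.5), klu (385.1), pnt (328.5), dpn (227.2), SoxN (214.7), btd (87.4) and Sp1 (71.6), and among neighbours only SoxN and btd were apart.

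At 50 h dpn (433.8 ± 204) led, with tll (406.1), klu (293.2), pnt (276.7), SoxN (233.0), btd (85.0) and Sp1 (73.9) after it, and again only SoxN and btd were apart among neighbours. At 84 h klu (370.1 ± 63.4) led, above dpn (235.3), SoxN (217.1), tll (204.1), pnt (177.3), btd (83.5) and Sp1 (43.7 ± 4.14). There klu was apart from dpn, pnt from btd and btd from Sp1. The Sp pair held the last 2 places at every age. Among the 15210 genes with a TPM, tll ranked 251 by mean at 24 h and 632 at 84 h, and Sp1 ranked 1681 and 2751.

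**Figure D5:**
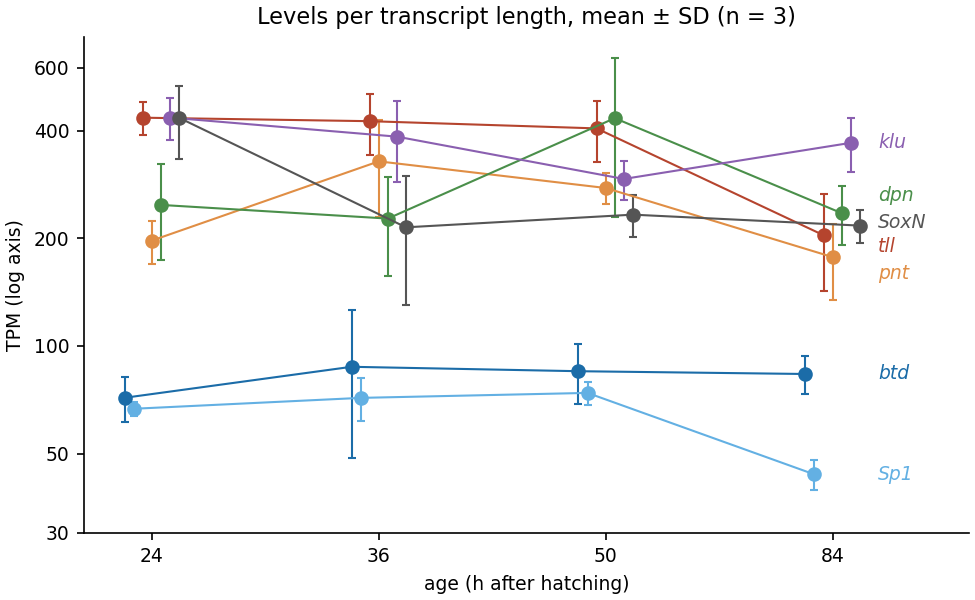
TPM (y axis, log scale) of the 7 factors against age in h after hatching (x axis), as mean ± SD of 3 libraries. btd and Sp1 stay lowest throughout, tll goes from among the highest 3 at 24 h to the fourth place at 84 h, and most neighbours overlap; TPM is relative within a library.

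Libraries of one age did not vary in the same way for all factors. The coefficient of variation within an age was 8.59 to 16.0% for Sp1, the steadiest, and 10.6 to 44.7% for btd and 14.2 to 42.8% for dpn, the most variable. The median gene tested had 33.2%, 24.6%, 23.8% and 23.0% at the 4 ages in turn. The second library was the highest of its age for 6 of the 7 factors both at 36 h and at 50 h, the exception each time being dpn, which was highest in the third.

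Relatives and partners of the 7 factors were examined in lists that leave the factors themselves out, with the edgeR test for any difference between ages, for which the share over all genes tested was 19.5%. Of 16 other neuroblast genes tested, 9 passed, and 6 to 8 did so when 1 library was left out. stg, the Cdc25 phosphatase that starts mitosis, was at 315.0 ± 22.1, 340.8 ± 45.4, 839.0 ± 127 and 493.6 ± 61.9 CPM at the 4 ages (adjusted p = 1.3e-06). esg, a Snail-family repressor, was at 97.1 ± 18.4, 44.7 ± 5.11, 21.4 ± 14.1 and 10.4 ± 5.56 CPM (adjusted p = 0.000123). dm, which encodes Myc, had means of 1779, 1532, 1230 and 978.6 CPM, and nab, a transcriptional cofactor, of 386.0, 459.6, 373.7 and 211.6 CPM. These 4 held their calls when any one library was left out, and esg and dm did not pass under spike-in scaling (adjusted p = 0.190 and 0.160). Between 24 and 84 h, 1 of the 16 was higher and 4 lower, with a median of -0.47 beside 0.01 for all genes. Without the first library at 24 h, 2 were higher and 6 lower. Under spike-in scaling 4 were higher and 0 lower, and the median was -0.43 relative to all genes. On that scale 29.4% of all genes were higher and 0.426% lower from 24 to 84 h, and the spike-in counts of all the lists stand beside that share.

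Of 13 regulators of type II identity and Trithorax or SWI/SNF genes, 5 passed, and 3 to 5 with 1 library left out (3 without the third library at 50 h). Trithorax complexes are known to keep btd active in type II neuroblasts. ash2, a Trithorax-complex subunit, was at 93.7 ± 24.5, 74.5 ± 5.85, 74.7 ± 2.64 and 171.4 ± 13.6 CPM (adjusted p = 6.0e-05), with its 84 h libraries above all the others. trx had means of 633.0, 468.3, 387.6 and 545.2 CPM (adjusted p = 0.0111), and did not pass without the third library at 50 h (0.0591). fru, a BTB zinc-finger factor, was at 669.6 ± 124, 536.9 ± 52.5, 442.9 ± 36.2 and 188.2 ± 39.0 CPM (adjusted p = 6.2e-07), and mam, the Notch co-activator Mastermind, had means of 389.5, 285.5, 199.5 and 215.3 CPM. Under spike-in scaling fru, mam and trx did not pass (adjusted p = 0.0597, 0.440 and 0.153), and ash2 did (0.00663). Between 24 and 84 h 2 of the 13 were higher and 3 lower, with a median of -0.22, and spike-in scaling gave 3 higher and 0 lower, with -0.26 relative to all genes. Leaving out any one library at 24, 50 or 84 h left 1 higher, 5 were lower without the third library at 24 h, and the median was -0.34 without the first at 84 h.

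Of 10 genes in a list of Notch-responsive bHLH repressors, to which dpn is related, 6 passed. This count was 2 without the first or the second library at 84 h, and 3 without the third at 84 h or the second at 24 h. cwo, a bHLH-Orange repressor best known from the circadian clock, was at 206.1 ± 16.6, 105.2 ± 25.4, 52.6 ± 13.4 and 65.7 ± 4.60 CPM (adjusted p = 5.8e-07; 0.973 under spike-in scaling). The list also holds side, an adhesion gene and no bHLH gene, which did not pass (adjusted p = 0.685). E(spl)m7-HLH was at 17.0 ± 6.40, 13.9 ± 7.71, 103.6 ± 50.8 and 22.2 ± 13.9 CPM (adjusted p = 0.00278), with its 50 h libraries above all the others. E(spl)m3-HLH, with means of 3.96, 5.82, 19.0 and 1.07 CPM, and E(spl)m5-HLH, with 2.74, 1.83, 6.31 and 0 CPM, passed (adjusted p = 0.0127 and 0.0311), but each lost the call when any of 4 libraries was left out, with values up to 0.179 and 0.0902. A count of 0 allows 3 counts, at most 0.666 CPM in any of the 12 libraries. Against that limit the mean of E(spl)m5-HLH was at least 4.12-fold higher at 24 h than at 84 h. Its 24 h libraries ran from 0.920 to 5.82 CPM, so this bound is for the mean only. At 84 h against 24 h, 0 of the 10 were higher and 4 lower with a median of -1.49, also with E(spl)m5-HLH set to that bound, and spike-in scaling gave 1 higher and 1 lower, with -1.43 relative to all genes. The lower calls were 1 without the third library at 84 h, and 2 without the second or the third at 24 h or the first or the second at 84 h, with medians of -1.19 to -1.61 over all libraries left out in turn.

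On the EGFR and MAPK route to pnt 6 of 14 genes passed, and 5 or 6 with 1 library left out. The EGFR feedback inhibitor sty was at 477.8 ± 105, 430.1 ± 105, 276.1 ± 26.9 and 159.5 ± 48.5 CPM (adjusted p = 3.6e-05). The ligand gene spi had means of 331.2, 361.6, 231.6 and 206.9 CPM, and rl, which encodes the MAPK itself, of 129.5, 103.4, 62.4 and 62.0 CPM. kek1, an inhibitor of the receptor, had means of 38.9, 51.3, 20.0 and 22.9 CPM. None of these 4 passed under spike-in scaling, where the adjusted p ran from 0.145 for sty to 0.678 for rl. Over the whole span 1 of the 14 was higher and 3 lower, with a median of -0.26, and spike-in scaling gave 2 higher and 0 lower, with -0.27 relative to all genes.

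Members of the same protein families gave smaller counts, and only those that passed the filter on low counts were tested. With the factors included, these were 6 of 9 Sp and KLF genes in the count table and 5 of 8 ETS genes. They were 6 of 8 NR2 genes and 3 of 8 Sox genes. In the Sp and KLF family 2 of 4 relatives of btd and Sp1 passed, and 1 or 2 with 1 library left out. luna had means of 17.7, 23.1, 7.32 and 7.25 CPM and cbt of 11.1, 4.17, 5.13 and 21.4 CPM, while CG3065 and Spps did not pass (adjusted p = 0.339 and 0.641). luna lost its call without the second library at 36 h (0.0847), and cbt lost its call when any of 7 libraries was left out, with values up to 0.153. Over the whole span the family had 0 higher and 0 lower in counts, with a median of -0.11, and 2 higher under spike-in scaling. A single left-out library gave at most 1 call in either direction (1 higher without the first at 24 h, 1 lower without the second at 24 h or the first at 84 h), with medians of -0.28 to -0.02.

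In the ETS family 1 of 4 relatives of pnt passed, Eip74EF, an ecdysone-response gene with means of 2.03, 2.91, 7.29 and 15.6 CPM (adjusted p = 0.0236), and it lost the call when any of 5 libraries was left out, with values up to 0.0648. aop, which encodes the repressor Yan that competes with Pointed for the same sites, had means of 150.7, 159.3, 131.6 and 204.5 CPM and did not pass (adjusted p = 0.138). The median of the 4 from 24 to 84 h was 0.59, with 1 higher and 0 lower (0 higher without the first library at 24 h), and 3 higher under spike-in scaling.

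Among nuclear receptors of the NR2 class, to which tll belongs, 1 of 5 relatives passed, and 2 did without the second library at 24 h. It was svp, a temporal switch factor, at 661.9 ± 128, 199.7 ± 53.5, 107.9 ± 15.5 and 147.0 ± 47.0 CPM (adjusted p = 2.5e-08; 0.501 under spike-in scaling). Like SoxN, svp had its 24 h libraries above all 9 later ones. At 84 h against 24 h, 0 of the 5 were higher and 2 lower, with a median of -0.05, and spike-in scaling called none of them. This median moved with single libraries, to -0.57 without the first at 24 h, -0.46 without the third at 24 h, -0.45 without the second at 84 h, -0.23 without the first at 84 h and 0.01 without the second at 24 h. The lower calls were 1 without the first library at 24 h or any one at 84 h. Of the 8 Sox genes in the count table only 3 were tested, SoxN among them, and the 2 tested relatives of SoxN passed. D, another group B Sox gene, was at 27.0 ± 2.27, 46.0 ± 22.0, 76.1 ± 22.1 and 4.86 ± 0.948 CPM (adjusted p = 3.2e-07), and the 84 h libraries lay below all the others. Sox14, an ecdysone-response gene, had means of 30.2, 19.3, 27.2 and 50.5 CPM (adjusted p = 0.0127), and did not pass without the third library at 84 h (0.0859). At 84 h against 24 h, 0 of the 2 were higher and 1 lower, with a median of -0.86, and spike-in scaling gave 1 higher and -0.84 relative to all genes.

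For each factor the 3 named genes with the most similar pattern were found by Pearson's r of log2(CPM + 1) over the 12 libraries, among 3097 genes with a mean of at least 10 CPM. With 12 libraries and 4 ages, all genes that differ with age correlate to some degree, and each r describes these libraries only. For Sp1 they were Eip75B (r = 0.95), koko (0.95) and tai (0.95). Eip75B encodes a nuclear receptor of the ecdysone response and tai an ecdysone receptor co-activator. tai had means of 987.6, 872.0, 716.6 and 303.8 CPM at the 4 ages, with the lowest at 84 h, as for Sp1. For tll they were Dl (0.95), ptr (0.93) and dmrt99B (0.92). Dl, a Notch ligand, had means of 251.6, 229.4, 238.7 and 152.6 CPM.

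For pnt the nearest were fas (0.92), zormin (0.92) and dally (0.90), the last a glypican with means of 17.4, 53.8, 31.8 and 4.25 CPM. For klu they were grh (0.91), lgs (0.90) and NKAIN (0.89). grh, a neuroblast transcription factor, had means of 1081, 762.8, 601.1 and 687.5 CPM, lowest at 50 h like klu. For SoxN they were fend (0.95), mor (0.94) and koi (0.94), and fend had means of 116.7, 46.4, 55.3 and 43.4 CPM. dpn was most like E(spl)malpha-BFM (0.89), hoip (0.80) and edl (0.78), and btd most like smi35A (0.81), px (0.79) and pds5 (0.75). The E(spl)malpha-BFM gene, which is Notch-responsive, had means of 10.2, 3.83, 35.0 and 4.69 CPM, with an SD of 34.3 at 50 h.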

How the data were processed

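Counts per gene were deposited by the authors for 12 libraries with no scaling, and TPM were deposited by the authors in a second table, with lengths not given in the sources used here. Per the submitters' processing notes, HTSeq 0.6.1p1 was among the tools, as were STAR 2.4.0i, Bowtie2 2.1.0, cutadapt 1.7.1 and CASAVA. BDGP5, dm3 and mm10 are listed as builds. Their roles are not stated. No coordinates or sequences are given; gene names and neighbours come from the BDGP6 annotation.

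The 92 ERCC rows were set apart. Genes were filtered with filterByExpr by age, which kept 7978 genes and 99.9% of gene counts, scaled by TMM and tested with edgeR 4.0.16 (R 4.3.3) by quasi-likelihood in 1 fit of all 12 libraries with age as the only term (8 residual degrees of freedom), adjusted by Benjamini-Hochberg over all genes tested, with a threshold of 0.05. A log2 change is later minus earlier age. Ratios used counts plus 0.5. TPM was tested with limma 3.58.1 on log2(TPM + 1). Spike-in scaling used the ERCC total as library size.

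Alternatives were DESeq2 1.42.0, DESeq2 size factors, upper-quartile factors, ERCC totals, with and without division by sorted cells, no filter, TPM, sorted cells as a covariate, a replicate block and leaving out each library. Replicates of an age differed beyond counting noise (chi-square per degree of freedom of 10.9 to 49.6).

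The factors and lists were chosen with earlier results of these data known. The named genes were all 7 factors, the 3 most like each, and of each list up to 4 genes with the smallest p for any difference between ages, plus ase and erm. The lists were other neuroblast genes, type II regulators with Trithorax and SWI/SNF genes, Notch-responsive bHLH genes, the Sp and KLF, ETS, NR2 and Sox families and the EGFR and MAPK route, with marker lists of 8 cell types.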

Additional observations from a re-analysis of the deposited data

How the results depend on the processing

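Of 860 values under alternatives, 740 kept their direction and side of the threshold or, for counts of factors and places in the order by TPM, stayed within 1.5 times, 44 lost a call, 26 gained one, 34 moved and 16 turned. All 16 turned with spike-in scaling. Given as values with ERCC totals and then per sorted cell, from 24 to 84 h they were 0.59 and 0.51 for Sp1, 0.37 and 0.28 for tll, 0.30 and 0.22 for SoxN, 0.97 and 0.89 for pnt and 1.08 and 1.00 for klu. From 24 to 50 h they were 1.21 and 0.99 for klu and 0.87 and 0.65 for SoxN, and from 36 to 50 h 0.59 and 0.62 for klu.

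Counts of factors called also moved. For 36 h against 24 h, 1 in the counts, they were 0 with both spike-in scalings, all 3 TPM settings and sorted cells as a covariate, 2 with no filter, and 0 to 1 without single libraries. For 50 h against 36 h, 0 in the counts, they were 1 with no filter, 2 with the replicate block and 0 to 1 without single libraries. For 84 h against 50 h, 2 in the counts, they were 0 with both spike-in scalings, 4 with no filter, 1 with TPM and a pseudocount of 1, filtered or not, 0 with a pseudocount of 0.1, and 1 to 3 without single libraries. For 50 h against 24 h, 2 in the counts, they were 5 with both spike-in scalings, all higher, where 65.5% and 59.9% of all genes were higher, 1 with each TPM setting and 2 to 3 without single libraries. For 84 h against 36 h and against 24 h, 3 each in the counts, they were 0 with both spike-in scalings, and 3 to 3 and 3 to 4 without single libraries. For any difference, 5 in the counts, they were 2 with both spike-in scalings, 3 with unfiltered TPM and 4 to 6 without single libraries. The causes were not tested.

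The adjusted p of the btd to Sp1 ratio ranged from 0.0376 to 0.148 without single libraries, that of pnt to tll from 0.0559 to 0.353 and that of dpn to klu from 0.0664 to 0.217, by exact permutation. With medians in place of means, 22 of 28 places in the order by TPM were the same.

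Replicate numbers did not pair the libraries throughout: deviations of same-numbered libraries correlated at -0.11 to 0.18, above 0.1 for the third libraries of 24, 36 and 50 h (0.104 to 0.178) but not for most others, and 6 of 12 libraries were most like one of their own number. With a replicate block, the counts called were 1, 2 and 3 for the 3 successive steps, 3 for 50 h against 24 h, 3 for 84 h against 36 h, 4 for 84 h against 24 h and 6 for any difference, the sixth being dpn (adjusted p = 0.00599). With 3 libraries an age and amplified RNA of about 100 cells, the spread between libraries limited the precision. Its common value over all genes tested was 36.2% (biological coefficient of variation), not counting depth. That value is not the spread of any single factor.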
